A study of Mus musculus with 4 samples.

Results

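The cytosolic ribosomal protein genes are the genes whose current symbol is Rpl or Rps plus a number, with at most 1 trailing letter a, x, y or l, together with Rplp0, Rplp1, Rplp2 and Rpsa, without the Rps6k kinases and pseudogenes. A gene was kept where a probe was well above background, by the scanner software's own flag, on at least 1 array. Of 83 gene symbols that match the name rule, 79 had a probe, and 77 genes were kept, 30 of the small 40S subunit and 47 of the large 60S subunit, among 32300 genes or transcripts on the array and 20564 that were well above background on at least 1 array. Rpl39l was below background on all arrays, Rps4l is annotated as a pseudogene, and no probe was matched to the remaining 4 symbols. The markers Rpl3, Rps6 and Rplp0 were well above background on all 4 arrays, as were all 77 members, so no member entered through only 1 group.

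The study compared lung tumors with non-tumor lung in mice with and without Nrf2 (gene symbol Nfe2l2), a transcription factor that turns on genes of the oxidative stress response. Its 4 groups were tumors of Nrf2-/- mice, tumors of Nrf2+/+ mice, and the non-tumor lung of Nrf2-/- and of Nrf2+/+ mice, all from female ICR mice aged 6 months. All mice, those giving non-tumor lung included, had received urethane (1 g/kg, into the peritoneal cavity), a carcinogen that causes lung tumors in mice, 16 weeks before, and the tumors measured 1.0 to 1.5 mm. RNA of 8 mice was pooled for each group and hybridised to 1 single-colour array, so there are no replicates, the spread between animals is not measured, and no p-value is given between 2 arrays.

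The ribosome is built from ribosomal RNA and about equal numbers of copies of each ribosomal protein, and growing cells devote much of their transcription and translation to making it. In mammals the mRNAs of nearly all ribosomal proteins begin with a cytosine followed by a run of pyrimidines, the 5′ terminal oligopyrimidine (TOP) motif, through which the growth-regulating kinase mTOR controls their translation. An array measures the mRNA level and not its translation. Many ribosomal protein genes also have near-identical processed pseudogene copies, so it is uncertain which copies a probe reads.

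Start sites of 6 genes are shown because they carry the TOP motif and because the values of these genes are described below: the marker Rps6, the stalk gene Rplp2, Rpl14 and Rpl15 of the large subunit, and Rps27 and Rpl35a. Each window is 30 bases, 10 before and 20 from the RefSeq transcript start (GRCm38.p6), 5′ to 3′ on the gene's strand, with the pyrimidine run at the start in capitals. The windows lie at chr4:86857348-86857377 on the minus strand for Rps6, chr7:141447641-141447670 on the plus strand for Rplp2, chr9:120571507-120571536 on the plus strand for Rpl14, chr14:18270967-18270996 on the minus strand for Rpl15, chr3:90213629-90213658 on the minus strand for Rps27 and chr16:33056472-33056501 on the plus strand for Rpl35a.
Rps6: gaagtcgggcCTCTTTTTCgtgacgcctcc
Rplp2: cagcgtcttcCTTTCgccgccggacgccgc
Rpl14: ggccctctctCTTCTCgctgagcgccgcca
Rpl15: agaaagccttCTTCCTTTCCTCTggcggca
Rps27: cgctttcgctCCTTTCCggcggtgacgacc
Rpl35a: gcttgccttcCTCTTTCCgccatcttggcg

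The RefSeq promoter table held 70 promoters of 58 members. A cytosine followed by at least 4 C or T at the annotated start was found in 13 of the 70 (18.6%), against 2.51% of all 32851 promoters in the table. Counted on both strands over 300 bases, with overlaps between motifs not removed, the ETS-type motif CCGGAAG stood in 35.7% of the member promoters and 8.86% of all promoters, and the GC box GGGCGG in 58.6% and 35.7%. The motif AAGATGGC, of the YY1 type, stood in 10% and 2.75%. The E-box CACGTG, which Myc can bind, stood in 11.4% and 7.15%, and TATAAA in 8.57% and 13.6%. Genes with and without the pyrimidine run at the annotated start had similar medians: the median log2 difference in Nrf2+/+ mice was 0.72 over the 13 genes with it, 0.67 over 45 genes whose promoters lack it and 0.64 over 19 genes with no promoter in the table. A run that begins a few bases from the annotated start is not counted here, so the second class also holds genes of the TOP type.

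All 4 arrays were read in the same way, and levels below are processed signals scaled to a common 75th percentile, in intensity units. Nfe2l2 served as the check of genotype: 1 probe read 7.27 in Nrf2-/- tumor, 7254 in Nrf2+/+ tumor, 5.35 in non-tumor lung of Nrf2-/- mice and 5290 in that of Nrf2+/+ mice, and neither of its probes was well above background in Nrf2-/- RNA. The share of probes well above background was 53.5% to 55.5% in the tumor arrays and 61.4% to 62.9% in the non-tumor arrays, with 0 saturated probes. The array of Nrf2+/+ non-tumor lung was alone on slide 1 and the other 3 arrays shared slide 2. The tumor comparison in Nrf2+/+ mice and the genotype comparison in non-tumor lung therefore cross slides, where slide and group cannot be told apart. The same holds for the gap between the genotypes in the tumor difference, which draws on all 4 arrays. The tumor comparison in Nrf2-/- mice and the genotype comparison in tumors lie within slide 2.

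Ribosomal protein mRNAs were higher in tumors than in non-tumor lung in both genotypes, and by more in Nrf2+/+ mice. The median member had a log2 difference of 0.31 in Nrf2-/- mice (1.24-fold) and of 0.66 in Nrf2+/+ mice (1.58-fold), where the median of all genes was -0.03 in each. In Nrf2-/- mice 73 of 77 members were above 0 (47% of all genes) and in Nrf2+/+ mice 76 of 77 (47.9% of all genes). The direction in Nrf2-/- mice depended on the scaling, since without any scaling the median was -0.04, where that of all genes was -0.38. In Nrf2+/+ mice the median ran between 0.21 without scaling and 0.96 with median scaling. The distance between the members' median and that of all genes was 0.34 in Nrf2-/- mice and 0.69 in Nrf2+/+ mice, and it is the same under every scaling that shifts an array as a whole. It was 0.099 in Nrf2-/- mice and 0.36 in Nrf2+/+ mice after quantile normalization.

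Most of these differences were small for single genes. In Nrf2-/- mice 0 members were at least 2-fold higher, against 5.43% of all genes, and 0 were at least 2-fold lower, against 9.13%. In Nrf2+/+ mice 3 members were at least 2-fold higher (Rpl14, Rps2 and Rps26), against 8.07% of all genes, a count that was 31 with median scaling, 1 with spike-in scaling or quantile normalization and 0 without scaling, and 0 were at least 2-fold lower, against 15.3%. The members' middle values were narrow: the interquartile range of the log2 difference was 0.15 in Nrf2-/- mice and 0.25 in Nrf2+/+ mice, against 0.64 and 0.98 over all genes. Related lists were narrow too, with 0.22 and 0.27 for mitochondrial ribosomal proteins. Ribosomal proteins outside the name rule had 0.11 and 0.21, and translation factors and other genes with TOP mRNAs 0.17 and 0.32. The members are also far brighter than the median gene, and the part of brightness in the spread was not tested. The software error of a log2 difference was combined from the errors that the scanner software gives for the 2 signals. It covers a spot's measurement and not the spread between mice. It was 0.20 for the median member, which was also the lowest value. For bright members it thus acted as a nearly fixed mark, while dim probes have larger errors. In Nrf2-/- mice 64 members were higher in tumors by more than that error, against 27.7% of all genes. In Nrf2+/+ mice 75 were higher, against 34.5%, and 1 (Rpl3l) was lower, against 37.6%. These are bulk samples, in which fewer cells of a type and less RNA per cell cannot be told apart.

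**Figure D1:**
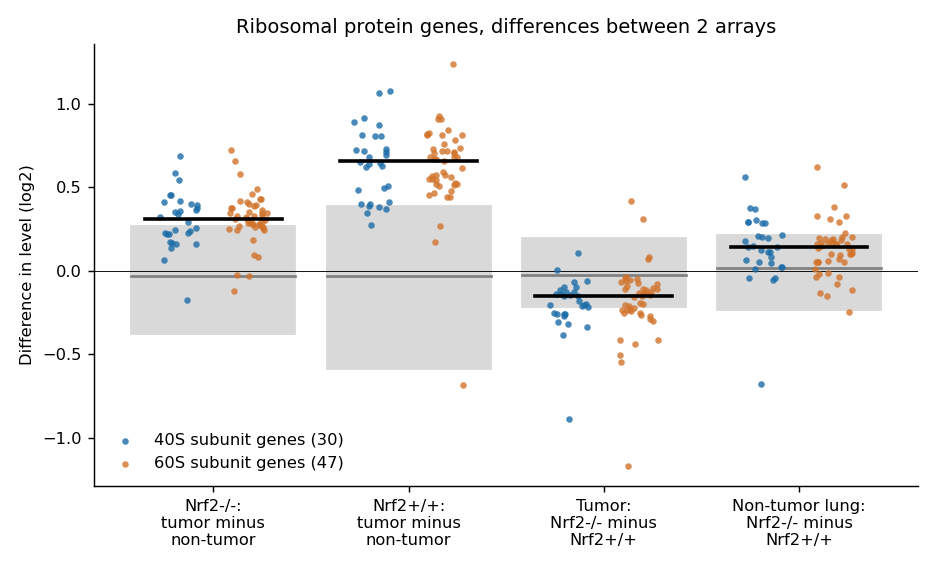
Log2 differences of the scaled signal between 2 arrays for the 77 ribosomal protein genes, with 40S genes in blue and 60S genes in orange (1 point a gene). Black lines mark the members' medians, grey lines and boxes the median and the middle 50% of all genes. The members lie mostly above 0 in the tumor comparisons and mostly below 0 in the genotype comparison of tumors. The median of the Nrf2-/- tumor comparison is 0.31 as plotted and -0.04 without scaling.

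Across the 4 arrays the members were ordered in much the same way. The highest signal was that of Nrf2+/+ tumor for 70 members (28.2% of all genes) and that of Nrf2-/- tumor for 5 (19.2%), and the lowest was that of Nrf2+/+ non-tumor lung for 64 (31.6%). Both tumor arrays were above both non-tumor arrays for 71 of 77 members, against 30.4% of all genes. The 6 exceptions were Rpl3l, Rpl14, Rpl30, Rpl35a, Rps24 and Rps27a. The median scaled signal of the members was 50123 in Nrf2-/- tumor, 57691 in Nrf2+/+ tumor, 39311 in non-tumor lung of Nrf2-/- mice and 35790 in that of Nrf2+/+ mice.

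The markers stood on the same side with unequal size. Rps6, the 40S protein that the S6 kinases phosphorylate, had a signal of 16482 in Nrf2-/- tumor, 20444 in Nrf2+/+ tumor, 12068 in non-tumor lung of Nrf2-/- mice and 12470 in that of Nrf2+/+ mice. Its log2 difference between tumor and non-tumor lung was 0.45 in Nrf2-/- mice and 0.71 in Nrf2+/+ mice, and the tumor arrays were both higher. Rpl3, a 60S protein close to the site of peptide bond formation, had 23471 in Nrf2-/- tumor, 31272 in Nrf2+/+ tumor, 17817 in non-tumor lung of Nrf2-/- mice and 21142 in that of Nrf2+/+ mice. Here too both tumor arrays were higher, by 0.40 in Nrf2-/- and 0.56 in Nrf2+/+ mice, and in each tissue the Nrf2-/- array was the lower.

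Rplp0, Rplp1 and Rplp2 form the stalk of the large subunit, which recruits translation factors. Rplp0, often used as a reference gene, had a signal of 100231 in Nrf2-/- tumor, 105140 in Nrf2+/+ tumor, 82596 in non-tumor lung of Nrf2-/- mice and 87272 in that of Nrf2+/+ mice. Its tumor difference was 0.28 in Nrf2-/- mice and 0.27 in Nrf2+/+ mice, near-equal in the genotypes, and in Nrf2+/+ mice it turned to -0.14 after quantile normalization and -0.18 without scaling. A second Rplp0 probe gave tumor differences of 0.61 and 0.89, so the size for this gene depends on the probe. Rplp1 differed by 0.35 in Nrf2-/- mice and 0.52 in Nrf2+/+ mice, and Rplp2 by 0.26 and 0.52. Rpl5 and Rpl11 bind 5S ribosomal RNA and, when ribosome assembly is disturbed, the p53 inhibitor Mdm2. Rpl5 differed by 0.28 in Nrf2-/- and 0.67 in Nrf2+/+ mice, and Rpl11 by 0.33 and 0.44.

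The subunits had similar medians. The 30 genes of the 40S subunit had a median tumor difference of 0.31 in Nrf2-/- mice and 0.65 in Nrf2+/+ mice, and the 47 genes of the 60S subunit had 0.31 and 0.67. In the 40S subunit 29 of 30 genes were above 0 in Nrf2-/- mice and 30 in Nrf2+/+ mice. In the 60S subunit these counts were 44 and 46 of 47. The shares of all genes above 0 were 47% in Nrf2-/- and 47.9% in Nrf2+/+ mice.

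The members with the largest tumor differences in Nrf2+/+ mice were Rpl14, Rps2, Rps26 and Rpl18. Rps2, a 40S protein near the mRNA entry channel, had a signal of 143295 in Nrf2-/- tumor, 170779 in Nrf2+/+ tumor, 98530 in non-tumor lung of Nrf2-/- mice and 80932 in that of Nrf2+/+ mice, a difference of 0.54 in Nrf2-/- mice and 1.08 in Nrf2+/+ mice. Rps26, a 40S protein at the mRNA exit channel, had 44667, 55654, 34481 and 26608 in the same order of groups, a difference of 0.37 in Nrf2-/- mice and 1.06 in Nrf2+/+ mice. For both genes the Nrf2+/+ arrays held the highest and the lowest of the 4 signals. Rpl18 was higher in tumors by 0.66 in Nrf2-/- mice and 0.93 in Nrf2+/+ mice, and Rps19, a 40S protein mutated in Diamond-Blackfan anemia, by 0.59 and 0.91.

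Rpl14, a 60S protein whose start site is shown above, had the largest gap between the genotypes. Its signal was 1374 in Nrf2-/- tumor, 3092 in Nrf2+/+ tumor, 1407 in non-tumor lung of Nrf2-/- mice and 1312 in that of Nrf2+/+ mice. The Nrf2+/+ tumor array alone was high and the other 3 were close together. The tumor difference was -0.03 in Nrf2-/- mice and 1.24 in Nrf2+/+ mice, each with a software error of 0.20. Rpl14 had 1 probe, so no other probe bears on it.

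**Figure D2:**
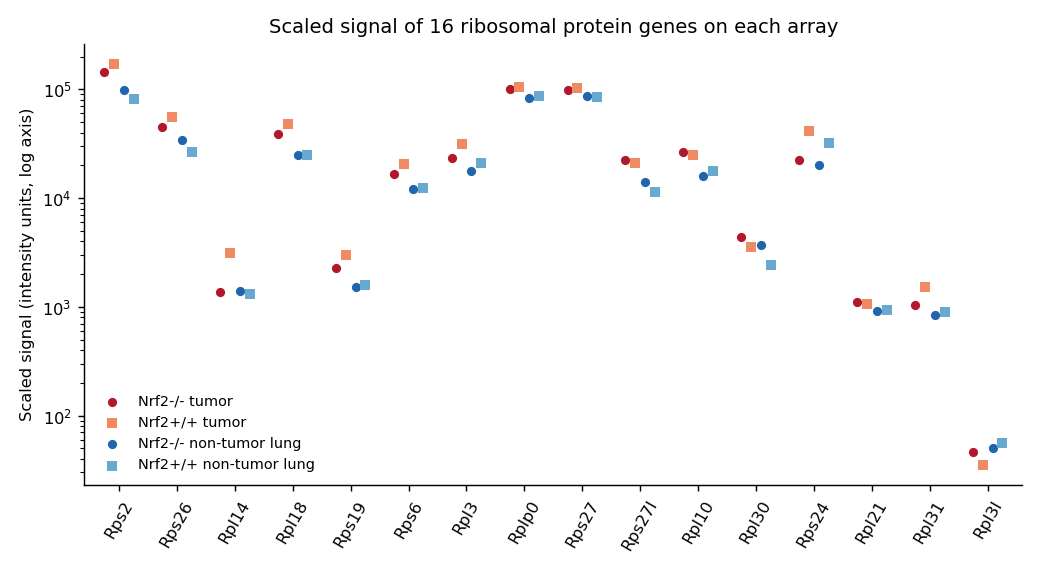
Scaled signal in intensity units (log axis) of 16 ribosomal protein genes on each of the 4 arrays, tumors in red and orange and non-tumor lung in blue. Signals are to be compared within a gene only, since probes differ in brightness. Rpl14 is high on the Nrf2+/+ tumor array alone, and Rps24 is lower on both Nrf2-/- arrays.

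In Nrf2-/- mice the largest tumor difference was that of Rpl10, a 60S protein that joins the subunit late in its assembly. It had a signal of 26401 in Nrf2-/- tumor, 24979 in Nrf2+/+ tumor, 16026 in non-tumor lung of Nrf2-/- mice and 17590 in that of Nrf2+/+ mice. Rpl10 was among 4 members with a larger tumor difference in Nrf2-/- mice (0.72) than in Nrf2+/+ mice (0.51). The lowest in Nrf2-/- mice were Rps27a (-0.17), which encodes ubiquitin fused to a 40S protein, Rpl3l (-0.12), Rpl14 (-0.03) and Rpl35a (-0.03). In Nrf2+/+ mice Rps27a differed by 0.50 and Rpl35a by 0.55.

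Variant copies were set beside their core genes. Rps27l, a copy of Rps27 that p53 induces, had a signal of 22505 in Nrf2-/- tumor, 20886 in Nrf2+/+ tumor, 13976 in non-tumor lung of Nrf2-/- mice and 11411 in that of Nrf2+/+ mice, and was higher in tumors by 0.69 in Nrf2-/- mice and 0.87 in Nrf2+/+ mice. Rps27 differed by 0.16 and 0.27, and its Nrf2+/+ value turned to -0.07 after quantile normalization and -0.18 without scaling. Rpl3l, a copy of Rpl3 that is made mainly in heart and skeletal muscle, had 46.5 in Nrf2-/- tumor, 34.9 in Nrf2+/+ tumor, 50.6 in non-tumor lung of Nrf2-/- mice and 56.1 in that of Nrf2+/+ mice. It was the only member lower in Nrf2+/+ tumor than in Nrf2+/+ non-tumor lung (-0.69, software error 0.33), and its difference in Nrf2-/- mice was -0.12 (software error 0.31). Of 16 striated and cardiac muscle markers, 15 were at least 2-fold lower in tumors in each genotype, with medians of -2.49 in Nrf2-/- and -2.88 in Nrf2+/+ mice, and the part of muscle tissue in the Rpl3l value was not tested.

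**Figure D3:**
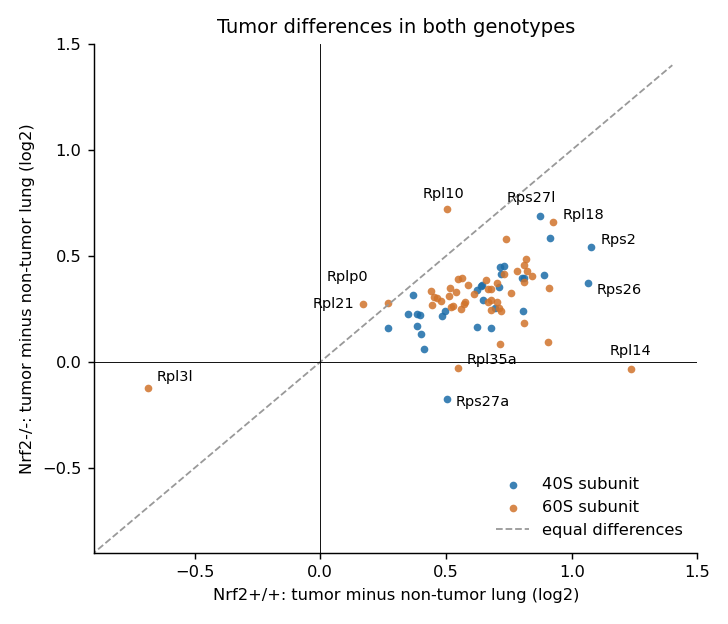
Tumor minus non-tumor log2 difference of each of the 77 genes in Nrf2-/- mice (vertical axis) against Nrf2+/+ mice (horizontal axis), with a dashed line of equal differences. Points below the line, 73 of 77, have the smaller difference in Nrf2-/- mice. The Nrf2+/+ comparison crosses slides and the Nrf2-/- comparison does not. Without scaling, the Nrf2-/- median falls to -0.04.

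The tumor difference was smaller in Nrf2-/- than in Nrf2+/+ mice for 73 of 77 members, against 52.7% of all genes. The median difference of differences was -0.31, and it lay between -0.20 and -0.48 under every scaling tried. It includes the Nrf2+/+ non-tumor array, alone on slide 1, so genotype dependence and slide cannot be told apart. Rpl14 was the 1 member past 2-fold (-1.27), against 3.98% of all genes that were lower and 6.8% that were higher. The next were Rpl10a (-0.81) and Rps26 (-0.69). The exceptions above 0 were Rpl3l (0.56, software error 0.45), Rpl10 (0.21), Rpl21 (0.10) and Rplp0 (0.01), the last 3 within their software error of 0.29. The second probes of Rpl21 (-0.31) and Rplp0 (-0.28) were below 0, also within their software error. The tumor differences of the genotypes, which share no array, had a Pearson correlation of 0.43 and a Spearman correlation of 0.50 across the 77 genes, given as a description since the genes are not independent.

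Between the genotypes within a tissue the members differed little and in opposite directions. In tumors 71 of 77 members were lower in Nrf2-/- than in Nrf2+/+ mice, with a median log2 difference of -0.15 (0.899-fold), and 6 were higher, against 46.3% of all genes. Rpl14 (-1.17) was the only member at least 2-fold lower, against 3.67% of all genes, and 0 were at least 2-fold higher, against 4.28%. In non-tumor lung 64 of 77 members were higher in Nrf2-/- mice, against 52.1% of all genes, with a median of 0.14 (1.10-fold). There 0 members were at least 2-fold higher, against 3.04% of all genes, and 0 at least 2-fold lower, against 4.6%. The medians kept these signs under every scaling tried. The sign of the genotype difference was opposite in the 2 tissues for 64 of 77 members, against 41.7% of all genes. Many of these values lay within the software error. In tumors 33 members were lower in Nrf2-/- mice by more than that error, against 23.9% of all genes, and 2 were higher, against 22.8%. In non-tumor lung, where the comparison crosses slides, 18 of 77 were higher by more than that error, close to the 24.6% of all genes. There 2 were lower, against 24.9%.

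Rps24, a 40S protein needed for processing of the small subunit's RNA, was lower in Nrf2-/- mice in both tissues. Its signal was 22433 in Nrf2-/- tumor, 41601 in Nrf2+/+ tumor, 19934 in non-tumor lung of Nrf2-/- mice and 31879 in that of Nrf2+/+ mice. Both Nrf2-/- arrays lay below both Nrf2+/+ arrays, by -0.89 in tumors and -0.68 in non-tumor lung. It was the only member at least 0.5 lower in both tissues, against 3.3% of all genes, and 0 members were at least 0.5 higher in both, against 3.76%. Rpl30, a 60S protein, was the nearest to the opposite pattern. It had 4396 in Nrf2-/- tumor, 3546 in Nrf2+/+ tumor, 3697 in non-tumor lung of Nrf2-/- mice and 2405 in that of Nrf2+/+ mice, higher in Nrf2-/- mice by 0.31 in tumors and 0.62 in non-tumor lung.

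Probes of the same gene mostly gave like values, with exceptions. Of 26 members with several probes, 7 had probes that differed by over 0.5 in some comparison (Rpl7a, Rpl21, Rpl23, Rpl29, Rpl31, Rplp0 and Rps25), and the median of the largest gap was 0.25. The probe that represents Rpl21 differed between genotypes by 0.07 in tumors and -0.04 in non-tumor lung. Its second probe read 327 in Nrf2-/- tumor, 55.6 in Nrf2+/+ tumor, 250 in non-tumor lung of Nrf2-/- mice and 34.4 in that of Nrf2+/+ mice, differences between the genotypes of 2.56 in tumors and 2.86 in non-tumor lung. The second probe of Rpl31 read 543 in Nrf2-/- tumor, 228 in Nrf2+/+ tumor, 391 in non-tumor lung of Nrf2-/- mice and 111 in that of Nrf2+/+ mice, against 1044, 1525, 832 and 901 for the representing probe. On both second probes the Nrf2-/- arrays were the higher, and which copies these probes read was not tested.

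**Figure D4:**
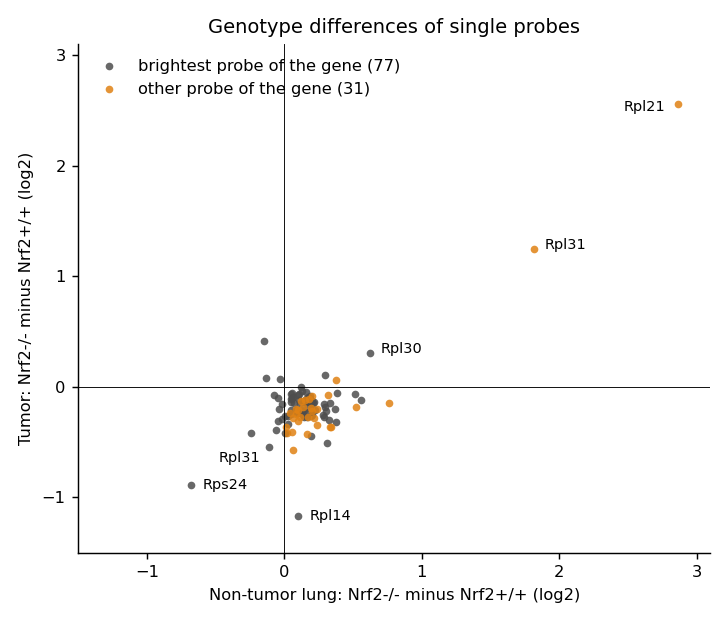
Log2 difference between Nrf2-/- and Nrf2+/+ mice in tumors (vertical axis) against that in non-tumor lung (horizontal axis), with the 77 representing probes in grey and 31 other probes of the same genes in orange. The second probes of Rpl21 and Rpl31 lie apart at the upper right, while their representing probes lie near the main group.

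A single fit across all genes could be tested, the additive model of tissue plus genotype in limma, with 1 residual degree of freedom, in which the genotype dependence described above serves as the error. No member and no other gene passed an adjusted p of 0.05 by limma for tissue (0% of all 20564 genes) or for genotype (0%). At an unadjusted p under 0.05 there were 18 of 77 members for tissue, all higher in tumors and 23.4% of the members, against 29.7% of all genes. Whether the members' share lies above or below that of all genes depended on the settings: it was 67.5% against 32.3% with arrays scaled on their medians, 63.6% against 33.2% after normexp, 62.3% against 39% among genes above background on all 4 arrays and 85.7% against 36.3% with an intensity trend. It was 3.9% against 27.9% after quantile normalization, and with spike-in scaling it was 1.3% (1 member, lower in tumors) against 35%. For genotype there was 1 member (Rps24, estimate -0.78), against 9.31% of all genes. The lowest adjusted p among the members by limma was 0.0988 for tissue (Rps27l, estimate 0.78 with a standard error of 0.16) and 0.414 for genotype (Rps24). The count for tissue depended on the settings. With an intensity trend in the prior variance 37 members passed (22.5% of all genes). When only genes above background on all 4 arrays were tested, 7 passed (23.7%). The count was 4 after normexp background correction (15.5%) and 2 with arrays scaled on their medians (14.2%). With spike-in scaling 0 members passed, where 14% of all genes did. With quantile normalization or the mean of all probes 0 members passed, as did 0% of all genes. For genotype 0 members passed under any setting run, where 0% to 1.16% of all genes did.

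Other parts of the translation machinery were compared through their own lists. Ribosomal proteins outside the name rule had a median tumor difference of 0.33 in Nrf2-/- and 0.59 in Nrf2+/+ mice over 8 genes. Among them Rpl36al was highest (0.65 and 1.16), and Rsl24d1, a factor of 60S assembly, was at 0.17 and -0.13. The 18 translation factors and other genes with TOP mRNAs had medians of 0.32 and 0.53, with the initiation factor Eif4b (0.62 and 1.17) and the elongation factor subunit Eef1b2 (0.63 and 1.01) highest, and Vim, which encodes the cytoskeletal protein vimentin, lowest (-0.15 and -0.66). The 78 mitochondrial ribosomal proteins, which serve a separate ribosome, had 0.22 and 0.44, with 67 and 73 genes above 0 and 3 at least 2-fold higher in Nrf2+/+ mice.

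Lists for making ribosomes and charging tRNAs were also compared. The 34 ribosome biogenesis factors had medians of 0.09 in Nrf2-/- and 0.26 in Nrf2+/+ mice, the 17 genes of RNA polymerase I and its factors 0.08 and 0.43, and the 20 cytosolic tRNA synthetases 0.05 and 0.20. Of the biogenesis factors 21 of 34 were above 0 in Nrf2-/- and 30 in Nrf2+/+ mice. Nhp2, a protein of the RNA-modifying H/ACA particles, was among the highest at 0.69 and 1.13, while Gar1 of the same particles (-0.78 and 0.18) was lowest in Nrf2-/- mice and the helicase Ddx21 (-0.58 and -0.34) in Nrf2+/+ mice. Of the polymerase I list, the subunit Polr1c was at 0.84 and 1.04 and the initiation factor Taf1b at -0.59 and -0.96. The 22 regulators of ribosomal protein synthesis had medians of 0.11 and 0.17. In Nrf2-/- mice 14 of them were above 0 and 8 below, and in Nrf2+/+ mice 15 and 7. Myc, which drives transcription of ribosomal protein and biogenesis genes, had 580 in Nrf2-/- tumor, 673 in Nrf2+/+ tumor, 319 in non-tumor lung of Nrf2-/- mice and 299 in that of Nrf2+/+ mice. Mycn, its relative, had 154, 1323, 151 and 175 in the same order, so that the Nrf2+/+ tumor array alone was high.

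**Figure D5:**
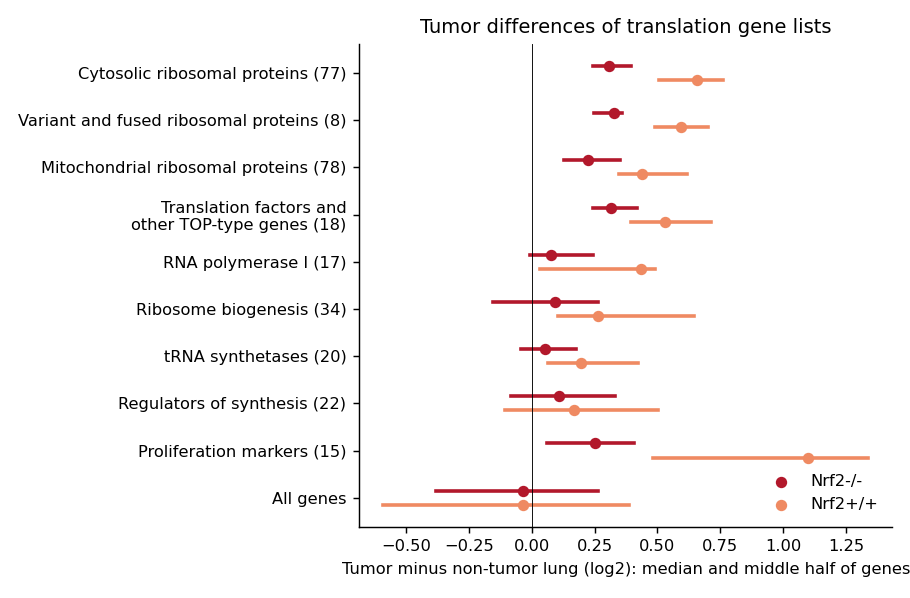
Median (point) and middle 50% of genes (bar) of the tumor minus non-tumor log2 difference for gene lists of the translation machinery, proliferation markers and all genes, in Nrf2-/- (red) and Nrf2+/+ mice (orange). The cytosolic ribosomal proteins lie at 0.31 in Nrf2-/- mice (-0.04 without scaling) and 0.66 in Nrf2+/+ mice, and the proliferation markers at 0.25 and 1.10.

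Markers of cell types and of proliferation moved with the same comparisons, and their part in the ribosomal protein values was not tested. Proliferation markers had a median tumor difference of 0.25 in Nrf2-/- and 1.10 in Nrf2+/+ mice, with 0 and 8 of 15 at least 2-fold higher. Alveolar type 2 markers had 1.06 and 1.21 over 13 genes, all above 0 in both genotypes, while alveolar type 1 markers had -0.67 and -1.21 over 9, endothelial markers -0.97 and -1.39 over 13, and ciliated cell markers -2.83 and -2.13 over 10. B and plasma cell markers had 0.22 and -0.96 over 11 genes, T and NK cell markers -0.20 and -0.49 over 12, and macrophage markers 0.42 and 0.32 over 12. The alveolar type 2 marker Sftpc was bright on every array. It read 298063 in Nrf2-/- tumor, 310613 in Nrf2+/+ tumor, 243778 in non-tumor lung of Nrf2-/- mice and 216525 in that of Nrf2+/+ mice. Its tumor difference was 0.29 in Nrf2-/- and 0.52 in Nrf2+/+ mice, below the medians of its list. Between genotypes in tumors, the median was -1.17 for ciliated cell markers (6 of 10 were lower in Nrf2-/- mice by 2-fold or more) and -0.54 for proliferation markers. T and NK cell markers had 0.80, macrophage markers 0.56 with 12 of 12 higher, B and plasma cell markers 0.48, striated muscle markers 0.29, alveolar type 1 markers 0.27, endothelial markers 0.17 and alveolar type 2 markers 0.09. Between genotypes in non-tumor lung, where the ribosomal proteins had 0.14, the medians were 0.51 for macrophage, 0.42 for T and NK cell, 0.30 for alveolar type 2 and 0.25 for proliferation markers. They were -0.46 for B and plasma cell, -0.29 for endothelial, -0.28 for ciliated cell, -0.05 for alveolar type 1 and -0.0028 for striated muscle markers.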

How the data were processed

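Signals came from 4 single-colour Agilent arrays (design 014868 on mouse build mm9, scanned through Feature Extraction 10.7.3.1, per the file headers). The deposited intensity of each spot is linear and was background-subtracted and detrended by the scanner software, per the file headers. The submitters' value table equalled these processed signals within rounding, so its scale was linear and uncentred, with no direction to settle (column medians 44.3, 41.75, 61.9 and 71 in the group order of the report). Of 41174 non-control probes, 4 non-uniform ones were left out. The files used here carry accessions in place of gene symbols, so names came from a RefSeq table (GRCm38.p6) by unversioned accession: 26686 probes had a symbol and 14484 had none.

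Signals were scaled to a common 75th percentile (653.6 intensity units) and taken to log2. The probe with the highest mean level represented a gene. Counts past 2-fold cover genes whose probe was well above background on either array compared. The additive fit used limma 3.58.1 in R 4.3.3 (lmFit, eBayes, Benjamini-Hochberg over 20564 genes) and was tested on simulated data. Python 3.11.15 with numpy 2.4.6, pandas 2.3.3 and matplotlib 3.10.9 did the rest. The files used here hold no mean signal column, so the normexp alternative used the median signal. Labels give no numbers that pair arrays, and do not state if tumors and non-tumor lung share animals. The number of arrays limits the precision.

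Named members were the markers, stalk and 5S genes, variant copies with their core genes, and the 4 highest and lowest per comparison. Those past 2-fold, the 3 brightest and dimmest, and the 3 each way in genotype dependence were also taken. From each other list the 2 highest and 2 lowest were chosen, and only some of these are named in the text. Values of some genes are left out of the text. The members and lists were chosen with earlier results of these data known. Alternatives covered scaling (medians, 7 spike-in probes, quantile, none), background, probes, filter, fold mark and prior variance.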

Additional observations from a re-analysis of the deposited data

Results flagged for a closer look

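Genotype differences of opposite sign in the 2 tissues, each larger than the scanner software's error, are given here for 6 members. With 1 array a group the difference between the tissues was not tested. The share of all genes that meet this rule was not computed, so the count has nothing to be compared with. The genotype comparison in non-tumor lung crosses slides. The log2 difference between Nrf2-/- and Nrf2+/+ mice was -0.30 in tumors and 0.32 in non-tumor lung for Rpl6, -0.50 and 0.31 for Rpl10a, -0.27 and 0.29 for Rpl15, and -0.21 and 0.22 for Rpl24. It was -0.25 and 0.28 for Rps2, and -0.32 and 0.37 for Rps26. Second probes gave -0.27 and 0.11 for Rpl6 and -0.07 and 0.32 for Rpl24. The non-tumor value of that Rpl6 probe and the tumor value of that Rpl24 probe lay within the software error of 0.20. The second Rps2 probe gave -0.35 and 0.24, both larger than that error.

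Some probes are outside the comparisons above, because they do not represent their gene or because their gene was left out. Several of them passed 2-fold. Between Nrf2-/- and Nrf2+/+ mice, the second Rpl21 probe differed by 2.56 in tumors and 2.86 in non-tumor lung, and the second Rpl31 probe by 1.25 and 1.82. In non-tumor lung a further Rpl29 probe differed by 1.13 between the genotypes (software error 0.34). It was dim, at 51.7 in Nrf2-/- and 23.7 in Nrf2+/+ mice, and not well above background in Nrf2-/- tumor. The brighter Rpl29 probes differed there by -0.04, 0.10 and 0.52. The probe of Rps4l, left out as a pseudogene, differed by -1.77 there. Between tumor and non-tumor lung of Nrf2+/+ mice, further probes differed by 1.42 for Rps25, 1.23 for Rpl23, 1.15 for Rps2 and 1.13 for Rpl36a. Those of Rpl37, Rpsa and Rpl31 differed by 1.12, 1.05 and 1.04. The Rps25 and Rpl37 probes were dim, with software errors of 0.32 and 0.28, and the representing probes of these genes differed by 0.63 and 0.67.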

How the results depend on the processing

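Scaling moved the size of the tumor difference most; the cause was not tested beyond the shift of all genes, whose median in Nrf2-/- and Nrf2+/+ mice was 0.10 and 0.27 with median scaling, -0.31 and -0.24 with spike-in scaling, and -0.38 and -0.49 without scaling. With median scaling the members' median in Nrf2+/+ mice was 0.96, with 31 past 2-fold higher (13.6% of all genes). With spike-in scaling 1 member passed there (5.99%), the Nrf2-/- median was 0.031 with 48 members above 0 (24.2%), and 3 members (33.5%) were higher in Nrf2-/- tumors than in Nrf2+/+ tumors. With quantile normalization the members' medians were 0.074 in Nrf2-/- and 0.37 in Nrf2+/+ mice, while those of all genes stayed near 0, at -0.025 and 0.0047. In Nrf2+/+ mice 1 member passed 2-fold there (8.76%). Without scaling, chosen after seeing the data, the medians were -0.036 (31 members above 0, 20.1% of all genes) and 0.21 (0 past 2-fold higher, 4.16%, and 1 lower, 26.4%), and 14 members (56.8%) were higher in Nrf2-/- tumors than in Nrf2+/+ tumors. Sign changes of single genes are listed only for named members whose value in the main setting was at least the median software error of 0.20. Members with smaller values, and those not named, are not covered by this list. The listed genes changed sign in Nrf2-/- mice with spike-in scaling (Rpl21 -0.0045, Rpl30 -0.029, Rpl39 -0.034, Rplp2 -0.021), with quantile normalization (Rpl5 -0.062, Rplp2 -0.10) and without scaling (Rpl5 -0.064, Rpl11 -0.012, Rpl21 -0.071, Rpl30 -0.095, Rpl31 -0.018, Rpl37a -0.036, Rpl39 -0.10, Rplp0 -0.066, Rplp2 -0.087). In Nrf2+/+ mice the listed sign changes came with quantile normalization (Rplp0 -0.14, Rps27 -0.066) and without scaling (Rpl11 -0.014, Rplp0 -0.18, Rps24 -0.069, Rps27 -0.18). With the mean of all probes, the genotype difference of Rpl31 in tumors was 0.35, and 1 member passed 2-fold higher in tumors (4.33%) and 1 in non-tumor lung (3.07%). At a 1.5-fold mark, 4 members (11% of all genes) were higher in Nrf2-/- tumors than in their non-tumor lung, and 46 (16.8%) higher and 1 (25.2%) lower in Nrf2+/+ tumors. Between the genotypes at that mark, 2 members (7.95%) were lower in tumors, and 1 (7.01%) was higher and 1 (10.2%) lower in non-tumor lung. Over the 109 single probes of the members, also chosen after seeing the data, 10 passed 2-fold higher in Nrf2+/+ tumors. Between the genotypes 2 of these probes did so in tumors and 3 in non-tumor lung, with 10 above 0 in tumors. The share over all probes was not computed, so these probe counts have nothing to be compared with. The members past adjusted p 0.05 for tissue in limma were 2 with median scaling (14.2% of all genes), 4 with normexp (15.5%), 7 among genes above background on all 4 arrays (23.7%), 37 with an intensity trend (22.5%) and 0 with spike-in scaling (14%). The all-array filter could not change the 108 named values, since all 77 members were well above background on all 4 arrays. No paired analysis was possible because the labels give 1 array per group and no shared replicate numbers, and leaving out an array leaves no residual degree of freedom. Dim probes such as Rpl3l and the second Rpl21 probe have larger errors.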
